A study of Mus musculus with 36 samples.

Results

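The ileum was compared with the jejunum of the mouse small intestine on expression arrays. All arrays whose titles name the ileum or the jejunum were taken, which are 18 of the 36 arrays of the series. They come from 6 pools of RNA, 3 of jejunum and 3 of ileum, and every pool was hybridised to array sets A, B and C, which carry different probe sets. The mice were 8-week-old males of the Hsd:ICR(CD-1) stock with no genetic change or treatment, fed the Harlan Teklad 2018S chow at will. Each pool held whole segments of 10 mice, so that epithelium, muscle, nerves, vessels and immune cells contributed to the total RNA. The jejunum was taken from the middle of the small intestine, and the ileum from the stretch ahead of the junction with the caecum and colon. Pooling evens out differences between animals. Each p-value and SE below reflects how far pools of 1 segment differ, with duodenum and colon pools included in that estimate of spread. The question was which transcripts separate the middle from the end of the small intestine.

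The small intestine is a tube of absorptive epithelium whose work is divided along its length. The jejunum takes up most sugar, fat, amino acids and folate, and its enterocytes carry lactase, fatty acid binding proteins and apolipoproteins for chylomicrons. The ileum recovers conjugated bile acids through the carrier Slc10a2, the cytosolic binding protein Fabp6 and the basolateral pair Slc51a and Slc51b, and it releases the hormone Fgf15, which slows bile acid synthesis in the liver. It also takes up vitamin B12 and holds most Peyer's patches, the lymphoid follicles of the gut wall.

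Every array had a trimmed mean intensity near 200 (200.1 or 200.2 on array set A), so the values had been scaled to a common level. The median intensity still differed. On array set A it was 66.4, 48.7 and 53.2 for jejunum pools 1, 2 and 3, and 65.5, 75.2 and 72.2 for the ileum pools, so 2 of the 3 jejunum pools were below every ileum pool. On array set B the jejunum (85.7 to 97.6) lay below the ileum (99.2 to 105), and on C the ranges overlapped. Pools of one segment correlated at 0.932 to 0.970 on array set A over probe sets, and pools of different segments at 0.916 to 0.942. The 18S ribosomal control was high in jejunum pool 1 and ileum pool 2 (14927 and 10683 on array set A) and low in the other 4 (201 to 1541). On array set A the actin 3' to 5' ratio, a sign of RNA integrity, ran from 1.28 to 1.55 in jejunum pools and from 1.14 to 1.20 in ileum pools, and the segments did not overlap on B and C either. The Gapdh 3' to 5' ratio overlapped between the segments on array sets A, B and C. On A it ran from 0.95 to 1.13 in jejunum pools and from 1.02 to 1.06 in ileum pools. The actin ratio moved with the segment, and its part in the results cannot be told apart from that of the segment.

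**Figure D1:**
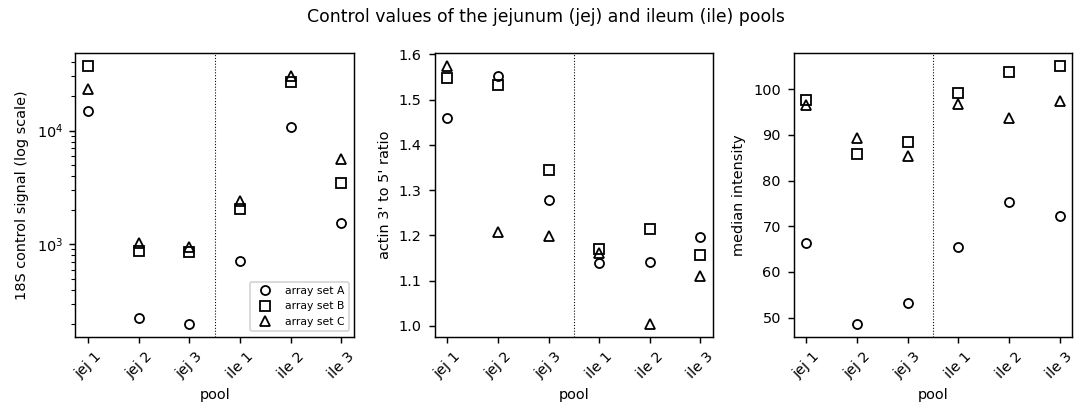
Control values of the 3 jejunum and 3 ileum pools (x axis) on array sets A (circles), B (squares) and C (triangles): 18S control signal on a log scale, the actin 3' to 5' ratio and the median intensity of the array. The 18S signal is high in jejunum pool 1 and ileum pool 2, and the actin ratio is lower in every ileum pool than in every jejunum pool of the same array set.

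The levels of segment markers matched the labels. The 3 ileum markers Fabp6, Slc10a2 and Fgf15 were all higher in the ileum, with summed intensities of 54.2 to 81.9 in the jejunum pools and 9798 to 13433 in the ileum pools. For the jejunum markers Lct, Fabp1 and Slc2a2 the sums were 16941 to 26135 in the jejunum pools and 765 to 2183 in the ileum pools. Of the 7 epithelial markers, Fabp2 was called higher and Fabp1 lower, as described below, and the other 5 were not called. Vil1, which bundles actin in microvilli, averaged 5799 and 5390 (log2 difference -0.10, adjusted p = 0.872), and the differences of Cdh1, Krt8, Krt20 and Epcam were -0.01, 0.41, 0.25 and 0.45. The summed intensity of the 7 ran from 34639 to 48087 in the jejunum pools and 35175 to 43132 in the ileum pools. That sum includes Fabp1, which is also a jejunum marker. Fabp1 read 17310, 12647 and 7597 in the jejunum pools and 786, 505 and 68 in the ileum pools. The overlap of the sums therefore does not show that the remaining epithelial markers were level. Markers of neighbouring sites were dim in both segments. The duodenal markers Pdx1 and Tff2 summed to 7.4 to 42.4 in the jejunum pools and 10.7 to 44.6 in the ileum pools, the pancreatic markers Prss2, Cela3b and Cpa1 to 58.6 to 85.8 in the jejunum pools and 50.3 to 75.3 in the ileum pools, and the colon markers Car1, Aqp8, Hoxb13 and Hoxd13 to 102 to 234 in the jejunum pools and 77.2 to 143 in the ileum pools, against colon means of 14650 for Car1 and 919 for Aqp8.

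Across 36701 probe sets, 1020 (2.78%) differed between the segments at a Benjamini-Hochberg adjusted p below 0.05 in limma on log2(intensity + 16). Of these, 591 (1.61% of all) were higher and 429 (1.17%) lower in the ileum. Array set A gave 663 calls (5.34% of its probe sets), B 307 (2.47%) and C 50 (0.421%), and the median residual SD was 0.36, 0.50 and 0.55. The pools of the segments did not overlap for 1018 of the 1020 called probe sets and for 16.5% of all probe sets. At least 4-fold changes, a log2 difference of 2 or more, numbered 73 higher and 79 lower, and at least 8-fold changes 13 higher and 17 lower. The split into higher and lower depended on how arrays were scaled. With the authors' scaling the median log2 difference of all probe sets was 0.06, while centring every array on its median, which moved it to -0.11, gave 202 higher and 551 lower calls. Of the 1020 calls, 627 were kept after centring. The offset of 16 keeps noise near background small and also shrinks the differences of dim genes, so a difference that starts from a dim level is uncertain in size. The count also leaned on single pools: it was 657 without jejunum pool 2, 472 without jejunum pool 3, 503 without ileum pool 1 and 384 without ileum pool 3.

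**Figure D2:**
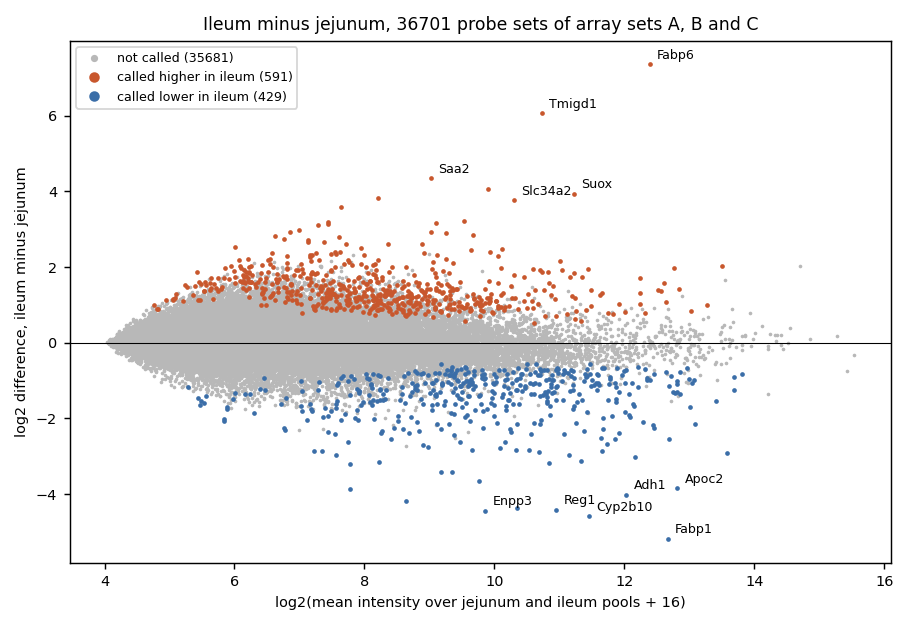
Log2 difference, ileum minus jejunum (y axis), against the log2 of the mean intensity over the 6 pools plus 16 (x axis) for 36701 probe sets; orange points are called higher (591) and blue points called lower (429) in the ileum. Fabp6 and Tmigd1 lie highest, and Fabp1 and Cyp2b10 lie lowest.

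The largest rise belonged to Fabp6, the bile acid binding protein of the enterocyte cytosol. Its intensities were 60, 40 and 47.7 in the jejunum pools and 9403, 9622 and 12968 in the ileum pools (log2 difference 7.35 ± 0.285 (SE), adjusted p = 4.07e-09). A second probe set for this gene stayed at background (1.13 and 1.83) and was not called. Tmigd1, an epithelial adhesion protein, came next, with 22.2, 45.6 and 22.5 in the jejunum pools and 3846, 1468 and 4727 in the ileum pools (log2 difference 6.07 ± 0.371 (SE), adjusted p = 3.02e-07). Both were near background in every jejunum pool and bright in every ileum pool. Suox, which oxidises sulfite to sulfate in mitochondria, was already present in the jejunum, with 255, 253 and 318 in the jejunum pools and 4584, 3768 and 5052 in the ileum pools (log2 difference 3.94 ± 0.216 (SE), adjusted p = 8.16e-08), and its means were 233 in the duodenum and 373 in the colon, so the ileum stood above its neighbours on both sides. The phosphate carrier Slc34a2 read 213, 142 and 123 in the jejunum pools and 2585, 2593 and 1856 in the ileum pools (log2 difference 3.77 ± 0.334 (SE), adjusted p = 1.57e-05). It was at 10.4 in the duodenum and 91.8 in the colon. Saa2, an acute phase serum amyloid, read 20.2, 12.8 and 85.4 in the jejunum pools and 1215, 766 and 917 in the ileum pools (log2 difference 4.35 ± 0.403 (SE), adjusted p = 2.24e-05), below its colon mean of 3892.

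The remaining 15 of the 20 largest rises ran from log2 differences of 3.59 (Tmem117) down to 2.39 (Fabp5). Here and below, a pair of values with "to" gives the mean intensity of the jejunum and of the ileum over 3 pools, followed in parentheses by the log2 difference, and a lone value beside centring or a left-out pool is the log2 difference in that fit. The desaturase Scd2 rose from 106 to 1351, with 1 high ileum pool (2777, against 597 and 680.3). The kinase Map3k6 rose from 18.2 to 296 and was at 16.4 in the duodenum and 15.2 in the colon, so that only the ileum pools were bright. Slc5a8, a sodium-coupled carrier of short-chain fatty acids, rose from 9.7 to 214, near its colon mean of 249. Adamdec1, a protease of mucosal macrophages and stroma, rose from 235 to 1333, and Gsdme, a pore-forming gasdermin, rose from 43.7 to 346. Mgat4c (114 to 1076, 2.89), Fgfbp1 (11.1 to 175, 2.74), Sval1 (19.4 to 229, 2.65), Fam151a (77.9 to 545, 2.62) and Irf2bpl (61.9 to 399, 2.49) completed the group with Fgf15, Cldn2 and Idi1, described below. Fgfbp1 has a brighter probe set on array set C that averaged 370.2 and 1384 and was not called (log2 difference 1.89, adjusted p = 0.0858). Map3k6 (-0.06), Irf2bpl (-0.79 to 0.03 on 3), Gsdme (0.76) and Idi1 (0.20) have dimmer probe sets that were not called, with log2 differences in parentheses. Scd2 had a log2 difference of 3.22 over all pools and of 2.52 without ileum pool 3. Mgat4c lost its call without jejunum pool 3 or ileum pool 1 or 3 (2.36 to 2.98) and Sval1 without jejunum pool 2 or 3 or ileum pool 1 or 3 (2.24 to 2.61).

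Among the falls, Fabp1, the fatty acid binding protein shared by liver and proximal gut, came first over all pools, with 17310, 12647 and 7597 in the jejunum pools and 786, 505 and 68 in the ileum pools (log2 difference -5.18 ± 0.565 (SE), adjusted p = 1.15e-04). The ileum pools were themselves far apart, and all lay below every jejunum pool. The place of Fabp1 rests on ileum pool 3: without it the log2 difference was -4.20, less than those of Cyp2b10 (-4.38), Enpp3 (-4.32), Reg1 (-4.24) and Slc46a1 (-4.23), and without ileum pool 1 it was -5.83. The phenobarbital-inducible cytochrome Cyp2b10 read 5031, 4854 and 6211 in the jejunum pools and 212, 272 and 155 in the ileum pools (log2 difference -4.58 ± 0.230 (SE), adjusted p = 8.11e-08). Enpp3, an ectoenzyme that cleaves nucleotides, read 1841, 1989 and 1424 in the jejunum pools and 35.1, 135 and 52 in the ileum pools (log2 difference -4.44 ± 0.412 (SE), adjusted p = 1.61e-05), and its duodenal mean was 5186. Reg1, a secreted lectin of the proximal gut, read 6357, 3170 and 1823 in the jejunum pools and 147, 177 and 108 in the ileum pools (log2 difference -4.41 ± 0.342 (SE), adjusted p = 3.95e-06), with a duodenal mean of 19739. The folate carrier Slc46a1 read 1406, 3260 and 2755 in the jejunum pools and 93, 126 and 78.9 in the ileum pools (log2 difference -4.37 ± 0.324 (SE), adjusted p = 2.88e-06), and its duodenal mean was 3018. For none of these genes did an ileum pool reach a jejunum pool, as the rule for choosing them required.

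The remaining 15 of the 20 largest falls ranged from log2 differences of -4.19 (Cym, the milk-clotting protease chymosin, from 743 to 25.3) to -2.86 (Rbp2). Adh1, which oxidises alcohols and retinol, fell from 7892 to 455, and the glutathione transferases Gstm6 (395 to 12.9, -3.85) and Gsta2 (318 to 28.0, -2.97) fell with it. Leap2, a secreted peptide that blocks the ghrelin receptor, fell from 3259 to 365 and was at 1559 in the duodenum and 20.9 in the colon. Bbox1, the last enzyme of carnitine synthesis, fell from 517 to 47.8, and the apoptotic caspase Casp6 fell from 384 to 25.3. The nuclease Dnase1 fell from 3921 to 571 and the angiotensin-converting peptidase Ace from 4631 to 507, and both were lower in the duodenum too (619 and 703), so that the jejunum held their highest means of the 4 segments. Apoc2, Apoa4, Rbp2, Slc2a2, Fbp1 and Lct are described with their groups. Fabp1 (-0.96), Bbox1 (0.03), Ace (0.24) and Dnase1 (-0.05) have dimmer probe sets that were not called, with log2 differences in parentheses. Dnase1 had a log2 difference of -2.97 over all pools and of -2.34 without ileum pool 3. Probe sets of families such as the glutathione transferases, cytochromes P450, Reg proteins, kallikreins, defensins and MHC genes can bind transcripts of relatives.

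**Figure D3:**
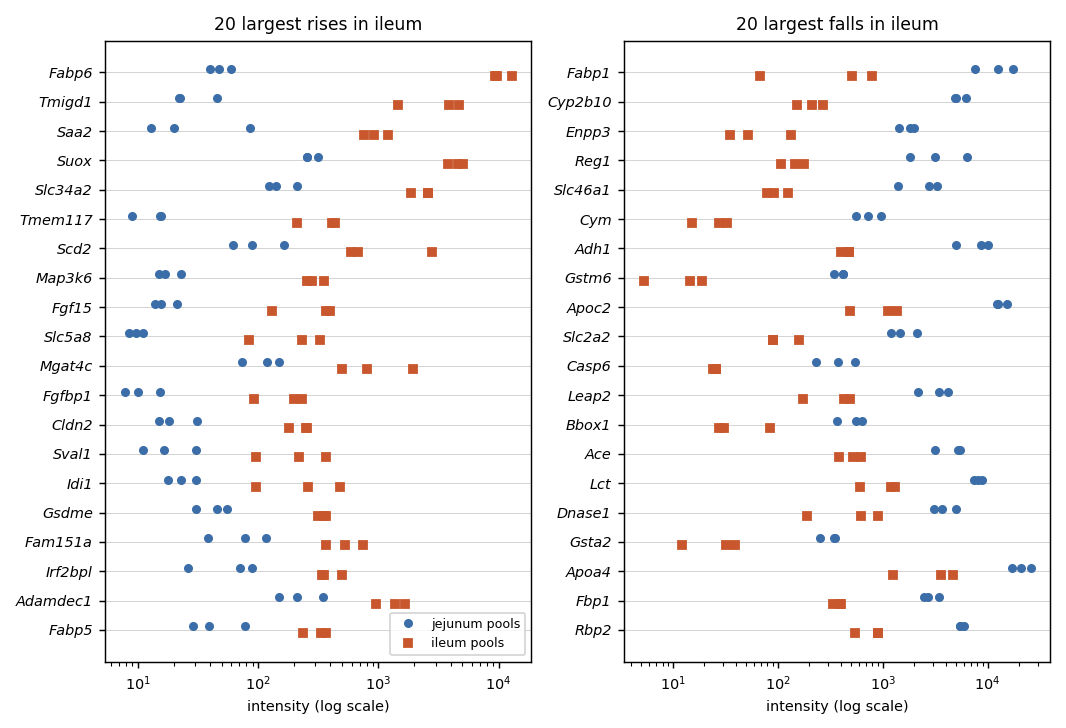
Intensity (log scale) in each jejunum pool (blue circles) and ileum pool (orange squares) for the 20 largest rises (left) and the 20 largest falls (right) in the ileum. The pools of the segments do not overlap for any of these genes, as the rule for choosing them required.

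The 250 bases before the RefSeq start (build GRCm38.p6) are shown for Fabp6 and Fabp1, the largest rise and fall over all pools, and lactase, a jejunal enzyme long studied through its promoter. Capitals mark matches on either strand to TATAAA (the TATA box), AGATAA (a letter pattern of GATA factors) and TTTATG (one of the CDX homeobox factors), which do not overlap each other in these stretches. Fabp6 (chr11:43601563-43601812, minus strand), Fabp1 (chr6:71199629-71199878, plus strand) and Lct (chr1:128328319-128328568, minus strand) read as follows from 5′ to 3′.
Fabp6: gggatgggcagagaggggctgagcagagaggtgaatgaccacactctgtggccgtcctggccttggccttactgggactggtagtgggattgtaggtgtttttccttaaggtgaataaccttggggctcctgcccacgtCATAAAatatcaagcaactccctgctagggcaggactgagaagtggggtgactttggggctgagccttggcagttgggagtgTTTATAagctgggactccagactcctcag
Fabp1: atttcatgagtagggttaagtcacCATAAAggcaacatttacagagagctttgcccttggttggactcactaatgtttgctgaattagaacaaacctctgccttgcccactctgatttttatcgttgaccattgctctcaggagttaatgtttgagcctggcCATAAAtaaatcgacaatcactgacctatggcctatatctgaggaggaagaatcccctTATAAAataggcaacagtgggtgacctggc
Lct: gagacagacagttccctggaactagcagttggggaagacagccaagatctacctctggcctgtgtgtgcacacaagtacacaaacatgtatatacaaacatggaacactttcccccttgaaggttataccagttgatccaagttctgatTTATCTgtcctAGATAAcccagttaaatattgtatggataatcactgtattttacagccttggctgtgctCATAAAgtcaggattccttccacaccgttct
Fabp1 held TATAAA as printed, ending 25 bases before the start. Fabp6 held it on the opposite strand only, printed as TTTATA and ending 24 bases before the start. TTTATG matched at 106 to 111 bases before the start of Fabp6, at 83 to 88 and 221 to 226 for Fabp1, and at 26 to 31 for Lct. AGATAA matched Lct alone among them, at 85 to 90 and 96 to 101 bases before the start. Over all 32851 promoters of the table, 12.4% held TATAAA, 10.0% AGATAA and 10.8% TTTATG. Among 409 promoters of genes called higher in the ileum the shares were 8.1%, 7.1% and 5.9%, and among 348 of genes called lower 14.1%, 8.3% and 5.7%. The promoters of the table belong to 27025 genes, against 15964 represented on the arrays. No share over the represented genes was taken, so the called groups are not set against a like background. A match of letters does not show that a factor binds there.

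To describe gene groups, 1 probe set stood for each of 15964 genes. Of these genes 392 (2.46%) were called higher and 323 (2.02%) lower in the ileum, and their median log2 difference was 0.08. After centring the counts were 117 and 410, and the median was -0.13. Of the 715 called genes, 236 kept their call without each jejunum and ileum pool in turn. The 49 lists below are read against these shares and medians, without a test of the list. The background of all genes is not matched to a list by array set. Set A represents 8251 of the genes, set B 5423 and set C 2290. The sets differed in the share called, as given above, and in the median log2 difference of their probe sets (A 0.12, B 0.03, C 0.02). What part the array sets of its members had in the values of a list was not tested. In 18 lists the sign of the median changed with centring, and in 10 with quantile normalization, so each median is given with its centred value. Of the 190 called genes named here, 82 have other probe sets, and for 68 of them at least 1 was not called, as given with each group.

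**Figure D4:**
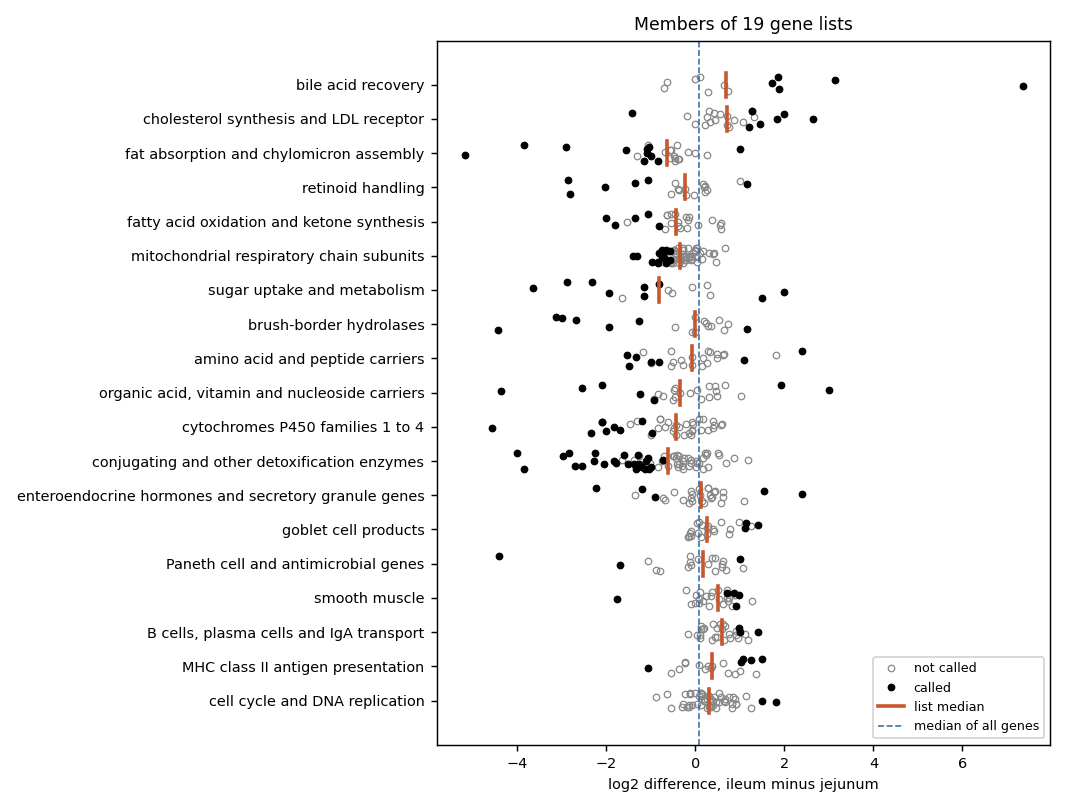
Log2 difference, ileum minus jejunum (x axis), of every measured member of selected gene lists (rows); filled points are called, open points are not, orange bars mark the list medians and the dashed line the median of all genes (0.08). Bile acid and cholesterol genes lie mostly to the right, and fat, sugar and detoxification genes mostly to the left.

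Of the 12 measured genes of bile acid recovery, 5 rose and 0 fell in the ileum, and the median log2 difference over them was 0.68 (0.41 after centring). The 5 called genes kept their call without each pool in turn. Besides Fabp6, the apical carrier Slc10a2 rose from a dim level, with 0.9, 0.4 and 5.6 in the jejunum pools and 40.9, 45 and 68 in the ileum pools (log2 difference 1.87 ± 0.340 (SE), adjusted p = 0.00759). The hormone Fgf15 read 21, 13.8 and 15.5 in the jejunum pools and 364, 132 and 397 in the ileum pools (log2 difference 3.13 ± 0.372 (SE), adjusted p = 2.62e-04). Both subunits of the basolateral exporter were present in the jejunum and higher in the ileum. Slc51a read 1882, 2253 and 2664 in the jejunum pools and 6468, 8104 and 7687 in the ileum pools (log2 difference 1.71 ± 0.157 (SE), adjusted p = 2.11e-05), and Slc51b read 754, 924 and 500 in the jejunum pools and 2617, 2067 and 3231 in the ileum pools (log2 difference 1.86 ± 0.245 (SE), adjusted p = 5.37e-04). The bile acid receptor Nr1h4 averaged 225 and 365 (log2 difference 0.65, adjusted p = 0.117), and its target Nr0b2 24.8 and 56.6 (log2 difference 0.72, adjusted p = 0.444). Neither passed the threshold. A second probe set of Slc51a, on array set C, averaged 6018 and 18043 without passing (log2 difference 1.66, adjusted p = 0.146).

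The fatty acid binding proteins went both ways. Fabp1 fell by the amount given above, and Fabp6 rose. Fabp2, the intestinal form that binds long-chain fatty acids, read 4032, 3839 and 2021 in the jejunum pools and 6430, 6287 and 6399 in the ileum pools (log2 difference 1.01 ± 0.227 (SE), adjusted p = 0.0269), so the 3 ileum pools lay close together above every jejunum pool. Fabp5, the epidermal form, was dim, with 39.3, 78.6 and 29 in the jejunum pools and 235, 334 and 371 in the ileum pools (log2 difference 2.39 ± 0.493 (SE), adjusted p = 0.0169). Across the 4 segments Fabp1 was highest in the duodenum and jejunum (13206 and 12518), Fabp2 in the ileum with 4127 in the duodenum and 1663 in the colon, and Fabp6 in the ileum with 31.3 in the duodenum and 116 in the colon. Fabp2 missed the threshold after centring (0.74). Fabp2 lost its call without jejunum pool 3 or any ileum pool (0.69 to 1.02) and Fabp5 without jejunum pool 3 or ileum pool 3 (2.16 to 2.26).

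**Figure D5:**
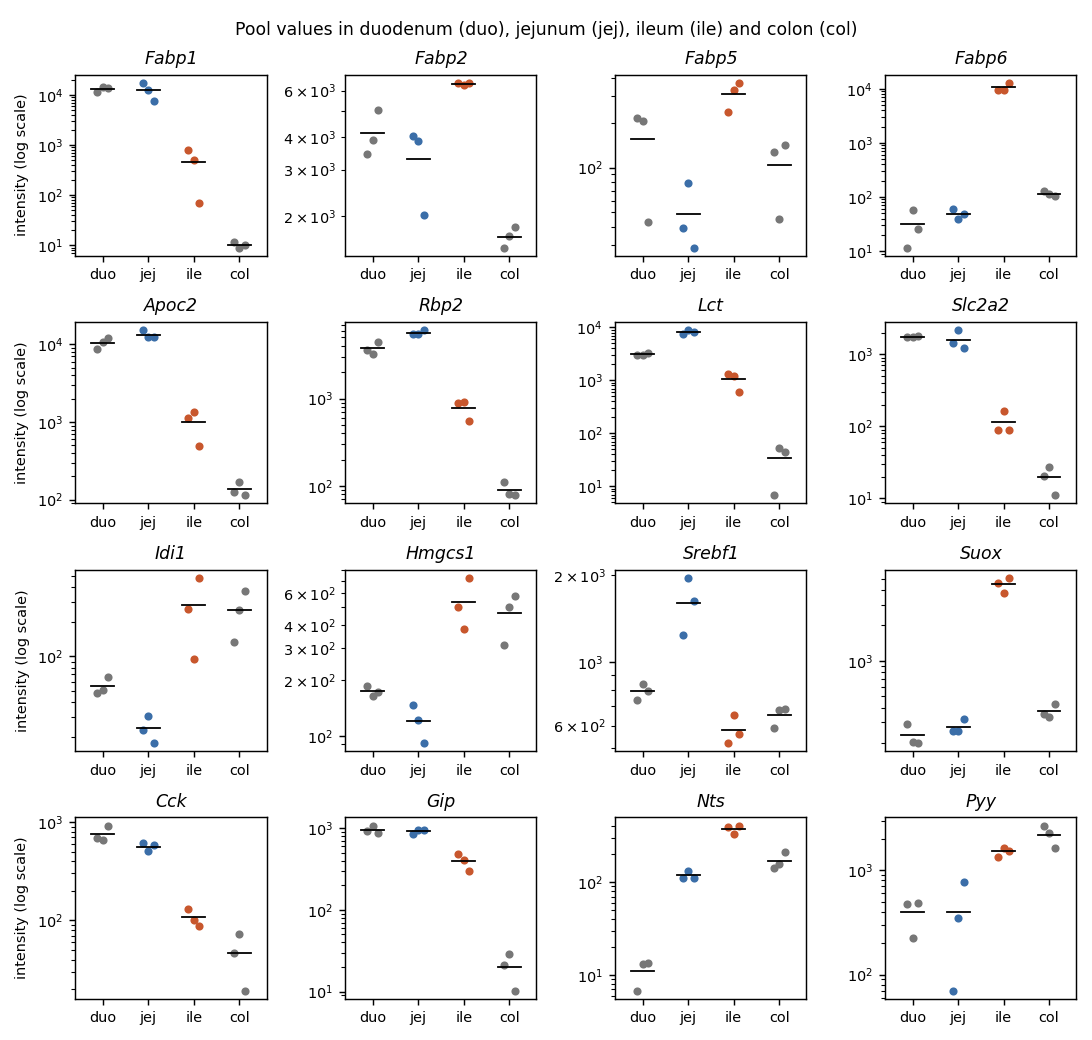
Intensity (log scale) of 16 genes in the 3 pools of duodenum, jejunum (blue), ileum (orange) and colon; points are pools and bars are means. Fabp1, Apoc2, Rbp2, Lct and Slc2a2 drop between jejunum and ileum, while Fabp6, Suox and Nts are highest in the ileum.

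Of the 26 measured genes of fat uptake and chylomicron assembly, 1 rose and 10 fell in the ileum, and the median log2 difference over them was -0.63 (-0.90 after centring). Apoc2, the cofactor of lipoprotein lipase, fell furthest of the apolipoproteins, with 15175, 12391 and 12637 in the jejunum pools and 1130, 1367 and 488 in the ileum pools (log2 difference -3.85 ± 0.288 (SE), adjusted p = 2.97e-06). Apoa4, a chylomicron apolipoprotein, read 25925, 17070 and 20717 in the jejunum pools and 3562, 4631 and 1250 in the ileum pools (log2 difference -2.92 ± 0.403 (SE), adjusted p = 0.001). For Apoa1, its neighbour in the genome, the segments overlapped, with 28528, 18432 and 23224 in the jejunum pools and 20018, 32138 and 18383 in the ileum pools (log2 difference -0.02 ± 0.258 (SE), adjusted p = 0.991). Apob, the structural protein of chylomicrons, averaged 454 and 395 (log2 difference -0.17, adjusted p = 0.911). The enzymes that rebuild triglyceride fell less steeply, with Mogat2 (2263 to 1004, -1.09) and Dgat1 (5117 to 2837, -0.84) for its synthesis, Acsl5 (4700 to 2235, -1.08), Slc27a4 (1961 to 854, -1.16) and Slc27a2 (401 to 112, -1.57) for acyl-CoA formation, and Mttp (559 to 262, -1.05), which loads lipid onto Apob. The receptor Scarb1 fell from 276 to 123 and had a duodenal mean of 1285.

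Of the 11 called genes of fat uptake, 4 (Fabp1, Apoc2, Apoa4 and Acsl5) kept their call without each pool in turn. Mttp has a brighter probe set on array set B that averaged 2084 and 1372 and was not called (log2 difference -0.61, adjusted p = 0.513). Mogat2 has a brighter probe set on array set B that averaged 6081 and 3445 and was not called (log2 difference -0.79, adjusted p = 0.0615). Mttp (-0.38), Mogat2 (-0.17), Dgat1 (-1.04 and -0.26) and Scarb1 (-0.58) have dimmer probe sets that were not called, with log2 differences in parentheses. Mttp lost its call without jejunum pool 1 or 2 or ileum pool 2 or 3 (-0.99 to -0.91), Dgat1 without jejunum pool 2 or 3 or ileum pool 1 or 3 (-0.87 to -0.76) and Mogat2 without jejunum pool 2 or 3 or ileum pool 1 or 3 (-1.13 to -0.89). Slc27a4 lost its call without jejunum pool 3 or ileum pool 1 or 3 (-1.14 to -0.93), Slc27a2 without jejunum pool 2 or ileum pool 1 or 3 (-1.64 to -1.18) and Scarb1 without jejunum pool 1 or 3 or ileum pool 1 or 3 (-0.99 to -0.82). All of them stayed negative in those fits.

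Of the 19 measured genes of retinoid handling, the uptake, storage and oxidation of vitamin A, 1 rose and 5 fell in the ileum, and the median log2 difference over them was -0.23 (-0.51 after centring). Rbp2, the retinol binding protein of enterocytes, read 5500, 5453 and 6020 in the jejunum pools and 898, 901 and 547 in the ileum pools (log2 difference -2.86 ± 0.198 (SE), adjusted p = 1.47e-06), with jejunum pools close together. Retsat, which saturates retinol, read 1594, 1293 and 1304 in the jejunum pools and 259.5, 174 and 134 in the ileum pools (log2 difference -2.82 ± 0.223 (SE), adjusted p = 4.53e-06). Lrat, which esterifies retinol for storage, fell from 205 ± 37.2 to 40.4 ± 24.4 (SD, n = 3, log2 difference -2.04, adjusted p = 0.0396). The dehydrogenases Rdh7 (1269 to 456, -1.37) and Aldh1a1 (4051 to 1959, -1.06) fell, while Rdh10, which makes retinal, rose from 386 to 864 (log2 difference 1.16 ± 0.266 (SE), adjusted p = 0.0283), with a duodenal mean of 868. The rise of Rdh10 was not called after centring (1.00). Rdh10 (-0.65 to 0.59 on 3) and Aldh1a1 (0.41) have dimmer probe sets that were not called, with log2 differences in parentheses. Lrat lost its call without any jejunum pool or ileum pool 2 or 3 (-2.15 to -1.80), Rdh7 without jejunum pool 2 or ileum pool 3 (-1.25 to -1.16) and Aldh1a1 without any jejunum pool or any ileum pool (-1.16 to -0.88). Rdh10 lost its call without jejunum pool 2 or 3 or ileum pool 1 or 3 (0.99 to 1.14).

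Of the 24 measured genes of fatty acid oxidation and ketone synthesis, 0 rose and 5 fell in the ileum, and the median log2 difference over them was -0.43 (-0.70 after centring). The mitochondrial thiolase Acaa2 read 11448, 10612 and 9792 in the jejunum pools and 4347, 4208 and 3863 in the ileum pools (log2 difference -1.35 ± 0.144 (SE), adjusted p = 9.03e-05), and the peroxisomal thiolases Acaa1b (1394 to 394, -1.81) and Acaa1a (4204 to 1968, -1.07) fell with it. The omega-hydroxylase Cyp4a10 fell from 75.4 to background (7.03), and the dehydrogenase Hadh fell from 3419 to 1909. Hadh lost its call without jejunum pool 1 or 2 or any ileum pool (-0.88 to -0.69). Of the 65 measured genes of the mitochondrial respiratory chain, 0 rose and 15 fell in the ileum, and the median log2 difference over them was -0.34 (-0.62 after centring). Among the called subunits were Uqcrc2 (2491 to 995, -1.31), Uqcrc1 (6959 to 3462, -0.98) and Uqcr11 (2952 to 1751, -0.75) of complex III. Ndufs3 of complex I fell from 2419 to 1330 and Cox7a1 of complex IV from 782 to 282. Of the 15 called subunits 5 kept their call without each pool in turn. Uqcrc1 (-0.26) and Ndufs3 (-0.22) have dimmer probe sets that were not called, with log2 differences in parentheses. Uqcr11 lost its call without ileum pool 3 (-0.71).

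Of the 23 measured genes of cholesterol synthesis and the LDL receptor route, 6 rose and 1 fell in the ileum, and the median log2 difference over them was 0.71 (0.44 after centring), with 20 members above 0. Over all 15964 genes 9084 were above 0. Idi1, which isomerises isopentenyl diphosphate, read 22.9, 30.7 and 17.8 in the jejunum pools and 261, 95.8 and 479 in the ileum pools (log2 difference 2.65 ± 0.451 (SE), adjusted p = 0.0047), so the ileum pools spread over a wide range above the jejunum. Hmgcs1, at the entry of the pathway, read 146, 123 and 91.4 in the jejunum pools and 499.9, 381 and 723 in the ileum pools (log2 difference 1.99 ± 0.261 (SE), adjusted p = 6.40e-04). Sqle, the squalene epoxidase, read 201, 231 and 216 in the jejunum pools and 626, 809.6 and 1064 in the ileum pools (log2 difference 1.84 ± 0.210 (SE), adjusted p = 1.71e-04). Msmo1 (174 to 421, 1.26) and Nsdhl (247 to 575, 1.20) of the later steps were called too, as was Insig2 (269.8 to 797, 1.45), which retains the SREBP complex in the endoplasmic reticulum. Fdps averaged 880.2 and 1616 without passing (adjusted p = 0.0623). Against this direction Srebf1, the SREBP gene tied to fatty acid synthesis, fell, with 1245, 1957 and 1625 in the jejunum pools and 523, 654 and 561 in the ileum pools (log2 difference -1.43 ± 0.170 (SE), adjusted p = 2.61e-04), while Srebf2 was at background in both segments (14.0 and 14.5). The colon means of Idi1, Hmgcs1 and Sqle were 251, 465 and 606. After centring 4 genes were called higher, and Msmo1 (0.98) and Insig2 (1.29) were not. Nsdhl has a brighter probe set on array set C that averaged 1398 and 1874 and was not called (log2 difference 0.39, adjusted p = 0.773). Nsdhl (0.53 and 0.94), Msmo1 (-0.42 to 1.51 on 3) and Insig2 (0.89) have dimmer probe sets that were not called, with log2 differences in parentheses. Msmo1 lost its call without jejunum pool 1 or 3 or ileum pool 1 or 3 (0.94 to 1.34), Nsdhl without ileum pool 3 (1.16) and Insig2 without jejunum pool 3 or ileum pool 1 or 3 (1.26 to 1.42).

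Of the 15 measured genes of sugar uptake and metabolism, 2 rose and 7 fell in the ileum, and the median log2 difference over them was -0.81 (-1.08 after centring). The glucose and fructose carrier Slc2a2 of the basolateral side read 1448, 2142 and 1204 in the jejunum pools and 90.2, 161 and 89.5 in the ileum pools (log2 difference -3.64 ± 0.254 (SE), adjusted p = 1.57e-06). The apical fructose carrier Slc2a5 read 619, 879.6 and 748 in the jejunum pools and 167, 161 and 92 in the ileum pools (log2 difference -2.32 ± 0.309 (SE), adjusted p = 7.46e-04). Slc5a1, the sodium-glucose cotransporter, fell less, with 5328, 5753 and 4397 in the jejunum pools and 2088, 2355 and 2425 in the ileum pools (log2 difference -1.16 ± 0.169 (SE), adjusted p = 0.00148). Of glucose synthesis and release, Fbp1 (2893 to 377, -2.88), Pck1 (1132 to 499, -1.15) and the glucose 6-phosphate carrier Slc37a4 (1618 to 387, -1.94) fell. The liver-type pyruvate kinase Pklr fell from 589.8 to 336. In the other direction the hexokinases Hk2 (43.2, 65.7 and 65 in the jejunum pools and 295, 205 and 352 in the ileum pools, log2 difference 2.00 ± 0.265 (SE), adjusted p = 7.18e-04) and Hk1 (996 to 2780, 1.50) rose, and their colon means were 693 and 3125. Slc5a1 has a brighter probe set on array set B that averaged 11146 and 6874 and was not called (log2 difference -0.63, adjusted p = 0.265). Slc2a5 (-0.26 and 0.20), Slc37a4 (-1.59), Hk2 (-0.07) and Pklr (0.00) have dimmer probe sets that were not called, with log2 differences in parentheses. Pklr lost its call without any jejunum pool or ileum pool 1 or 3 (-0.91 to -0.64) and Hk1 without jejunum pool 3 or ileum pool 1 or 3 (1.12 to 1.50). Hk1 was also not called after centring (1.22).

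Of the 18 measured genes of brush-border hydrolases, 1 rose and 6 fell in the ileum, and the median log2 difference over them was -0.02 (-0.13 after centring). Lactase (Lct) read 7377, 8757 and 8140 in the jejunum pools and 1306, 1213 and 608 in the ileum pools (log2 difference -3.01 ± 0.343 (SE), adjusted p = 1.74e-04), and trehalase (Treh) read 4546, 7223 and 5896 in the jejunum pools and 845, 942 and 873 in the ileum pools (log2 difference -2.69 ± 0.290 (SE), adjusted p = 7.42e-05). The phosphatase Alpi fell from 18621 to 7762, with a duodenal mean of 52060, and the endopeptidase Mme fell from 239 to 57.5. No difference was called for 3 abundant enzymes. Sucrase-isomaltase (Sis) averaged 2933 and 2823 (log2 difference -0.02 ± 0.385 (SE), adjusted p = 0.994), maltase-glucoamylase (Mgam) 4659 and 4315 (log2 difference -0.02 ± 0.254 (SE), adjusted p = 0.988), and aminopeptidase N (Anpep) 12767 and 12207 (log2 difference -0.08 ± 0.168 (SE), adjusted p = 0.914). The meprin subunit Mep1a rose from 209.6 to 481 (log2 difference 1.15), and was not called after centring (0.88). Mme has a brighter probe set on array set B that averaged 524 and 193 and was not called (log2 difference -1.31, adjusted p = 0.0918), nor were others at -0.83 and -1.88. Mme (-0.04) has a dimmer probe set that was not called, with its log2 difference in parentheses. Mme had a log2 difference of -1.95 over all pools and of -1.36 without ileum pool 2. Mme lost its call without jejunum pool 1 or 2 (-1.86 to -1.78) and Mep1a without ileum pool 2 (0.99).

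Of the 26 measured genes of amino acid and peptide transport, 2 rose and 5 fell in the ileum, and the median log2 difference over them was -0.07 (-0.35 after centring). Slc1a1, the glutamate and aspartate carrier of the brush border, read 50.5, 36.6 and 44.3 in the jejunum pools and 281, 242 and 377 in the ileum pools (log2 difference 2.39 ± 0.310 (SE), adjusted p = 5.90e-04), and its means were 31.3 in the duodenum and 47.5 in the colon. The glutamine carrier Slc38a1 rose from 154 to 347. Carriers of the basolateral side and their partner fell, namely Slc3a2 (4642, 6604 and 7290 in the jejunum pools and 2039, 2700 and 2450 in the ileum pools, log2 difference -1.34 ± 0.188 (SE), adjusted p = 0.00115), Slc7a8 (890.2 to 290.3, -1.53), Slc7a7 (3677 to 1999, -0.83) and Slc43a2 (9771 to 4624, -1.01). The proton-coupled carrier Slc36a1 fell from 3874 to 1314. Slc6a19, the main apical carrier of neutral amino acids, averaged 10548 and 7011 (log2 difference -0.56, adjusted p = 0.513), and Slc7a9, of the cystine carrier, 2840 and 3125 (log2 difference 0.15, adjusted p = 0.814). Slc43a2 (-1.05 to -0.10 on 3) and Slc3a2 (-0.67) have dimmer probe sets that were not called, with log2 differences in parentheses. Slc7a8 lost its call without ileum pool 3 (-1.40), Slc7a7 without jejunum pool 2 or 3 or ileum pool 1 or 3 (-0.79 to -0.68) and Slc43a2 without jejunum pool 2 or 3 or any ileum pool (-1.11 to -0.78). Slc38a1 lost its call without jejunum pool 3 or ileum pool 1 or 3 (1.04 to 1.13).

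Of the 25 measured genes of organic acid, vitamin and nucleoside transport, 2 rose and 5 fell in the ileum, and the median log2 difference over them was -0.35 (-0.62 after centring). Beside the folate carrier, the concentrative nucleoside carrier Slc28a1 fell, with 2716, 7837 and 8589 in the jejunum pools and 905, 1209 and 819 in the ileum pools (log2 difference -2.54 ± 0.427 (SE), adjusted p = 0.00618). The lactate carriers Slc5a12 (705 to 164, -2.10) and Slc16a3 (604 to 265, -1.24) and the ascorbate carrier Slc23a2 (337 to 168, -0.94) fell. Slc5a8, of the same family as Slc5a12, rose, with 8.4, 11 and 9.7 in the jejunum pools and 328, 83.8 and 231 in the ileum pools (log2 difference 2.99 ± 0.455 (SE), adjusted p = 0.00175). The sulfate carrier Slc13a1 rose, with 709.7, 2015 and 844 in the jejunum pools and 4744, 2637 and 5591 in the ileum pools (log2 difference 1.93 ± 0.358 (SE), adjusted p = 0.00759), and had a duodenal mean of 6784, so the jejunum was the low segment of the small intestine. Its relative Slc13a2, for dicarboxylates, averaged 10260 and 5946 (log2 difference -0.72, adjusted p = 0.23). Slc5a12 (-0.82 and -0.32) has dimmer probe sets that were not called, with log2 differences in parentheses. Slc13a1 lost its call without ileum pool 3 (1.72), Slc23a2 without jejunum pool 1 or 2 or ileum pool 1 or 3 (-0.99 to -0.75) and Slc5a12 without any jejunum pool or ileum pool 2 or 3 (-2.34 to -1.66). Slc16a3 lost its call without any jejunum pool or ileum pool 1 or 3 (-1.35 to -1.02).

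Of the 20 measured genes of iron absorption and storage, 1 rose and 1 fell in the ileum, and the median log2 difference over them was -0.01 (-0.23 after centring). The iron exporter Slc40a1 rose from 168 ± 56.1 to 448 ± 181 (SD, n = 3, log2 difference 1.31, adjusted p = 0.0358), far under its duodenal mean of 8017, and the call was lost after centring (1.15). The iron importer Slc11a2 averaged 394 and 316 (log2 difference -0.30, adjusted p = 0.513). Of the 19 measured genes of zinc transport and metallothioneins, 0 rose and 1 fell in the ileum, and the median log2 difference over them was -0.05 (-0.23 after centring). The zinc carrier Slc39a5 fell from 7205 to 4005. Of the 9 measured genes of calcium transport and the vitamin D response, 1 rose and 0 fell in the ileum, and the median log2 difference over them was 0.47 (0.26 after centring). The one that rose was Cldn2, described with the junctions. Of the 20 measured genes of cubilin endocytosis and vitamin B12, 0 rose and 1 fell in the ileum, and the median log2 difference over them was 0.07 (-0.20 after centring). The B12 receptor subunit Amn fell, with 7095, 15600 and 11994 in the jejunum pools and 4776, 5770 and 5168 in the ileum pools (log2 difference -1.07 ± 0.237 (SE), adjusted p = 0.0233), while its partner cubilin (Cubn) averaged 2586 and 3003 (log2 difference 0.36, adjusted p = 0.829) with 1 low jejunum pool (1103). Amn has a brighter probe set on array set C that averaged 11217 and 7917 and was not called (log2 difference -0.43, adjusted p = 0.729). Slc40a1 lost its call without jejunum pool 2 or 3 or ileum pool 1 or 3 (1.02 to 1.42), Slc39a5 without jejunum pool 2 or 3 or ileum pool 1 or 3 (-0.79 to -0.68) and Amn without jejunum pool 2 or 3 or ileum pool 1 or 3 (-1.06 to -0.82).

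Of the 35 measured genes of ion exchange, channels and guanylins, 1 rose and 3 fell in the ileum, and the median log2 difference over them was 0.04 (-0.24 after centring). The gut peptide uroguanylin (Guca2b), which drives chloride secretion, fell with 10076, 13362 and 14346 in the jejunum pools and 3583, 4180 and 3741 in the ileum pools (log2 difference -1.70 ± 0.175 (SE), adjusted p = 6.92e-05). The anion exchanger Slc26a6 fell from 9043 to 4076 and the potassium-chloride cotransporter Slc12a7 from 1023 to 599. Of the 24 measured genes of the carbonic anhydrase and aquaporin families, 1 rose and 2 fell in the ileum, and the median log2 difference over them was -0.21 (-0.38 after centring). Car12 rose (82.5 to 249, 1.43), and Aqp11 (1948 to 844, -1.20) and Car2 (98.7 to 43.7, -0.92) fell. Of the 41 measured genes of claudins, junctions and keratins, 3 rose and 2 fell in the ileum, and the median log2 difference over them was 0.22 (-0.06 after centring). The pore-forming claudin Cldn2 read 31, 14.9 and 18.2 in the jejunum pools and 252, 179.7 and 254 in the ileum pools (log2 difference 2.72 ± 0.474 (SE), adjusted p = 0.00577), and its duodenal mean was 184. Cldn15, the other pore-forming claudin of the gut, fell from 8762 to 4699 and Cldn4 fell from 1719 to 855. Tjp1 (118 to 274, 1.11) and Dsg2 (405 to 726, 0.81) rose, though neither was called after centring (0.83 and 0.54). Cldn7 averaged 5453 and 5532 (log2 difference 0.03, adjusted p = 0.967). Slc12a7 (-0.07), Cldn15 (-0.40), Tjp1 (0.37) and Dsg2 (1.01) have dimmer probe sets that were not called, with log2 differences in parentheses. Slc12a7 lost its call without jejunum pool 2 or 3 or any ileum pool (-0.77 to -0.62), Car12 without ileum pool 3 (1.31) and Car2 without jejunum pool 1 or 2 or any ileum pool (-1.05 to -0.70). Cldn15 lost its call without jejunum pool 2 or 3 or ileum pool 3 (-0.84 to -0.77), Cldn4 without jejunum pool 2 or 3 or ileum pool 1 or 3 (-0.98 to -0.82) and Tjp1 without jejunum pool 1 or 3 or ileum pool 1 or 3 (0.96 to 1.04). Dsg2 lost its call without ileum pool 3 (0.73).

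Of the 39 measured genes of the cytochrome P450 families, 0 rose and 9 fell in the ileum, and the median log2 difference over them was -0.44 (-0.64 after centring). After Cyp2b10, those with the smallest adjusted p included Cyp4v3 (8680, 9325 and 5501 in the jejunum pools and 4013, 1370 and 1010 in the ileum pools, log2 difference -2.10 ± 0.359 (SE), adjusted p = 0.005), Cyp2d26 (4585, 6736 and 7977 in the jejunum pools and 1672, 1943 and 1615 in the ileum pools, log2 difference -1.84 ± 0.185 (SE), adjusted p = 5.26e-05) and Cyp3a11 (3746, 2488 and 1385 in the jejunum pools and 674, 442 and 502 in the ileum pools, log2 difference -2.11 ± 0.323 (SE), adjusted p = 0.00207), the last being a main enzyme of drug oxidation. Cyp2d22 (487 to 96.2, -2.34), Cyp4f13 (1092 to 328, -1.70), Cyp2c23 (369.7 to 152, -1.20) and Cyp3a13 (2540 to 1245, -0.97) were called as well. Cyp4f14 was bright and was not called, with means of 14871 and 13904 (log2 difference -0.05, adjusted p = 0.967). Of the 63 measured genes of conjugation and other detoxification steps, 0 rose and 24 fell in the ileum, and the median log2 difference over them was -0.61 (-0.79 after centring). Adh1 read 4981, 8592 and 10104 in the jejunum pools and 403, 483 and 478 in the ileum pools (log2 difference -4.01 ± 0.250 (SE), adjusted p = 6.63e-07), and the epoxide hydrolase Ephx2 read 1638, 2756 and 2385 in the jejunum pools and 319.6, 279.5 and 288 in the ileum pools (log2 difference -2.84 ± 0.225 (SE), adjusted p = 4.53e-06). The glutathione transferase Gstt1 fell from 952 to 181 and the carboxylesterase Ces2g from 813 to 112. Of the 24 calls 16 were kept without each pool in turn, and all 24 after centring. Of the 30 measured genes of the ABC transporter family, 0 rose and 1 fell in the ileum, and the median log2 difference over them was -0.12 (-0.34 after centring). The gene that fell was Abcb9, a peptide carrier of lysosomes (326 to 127, -1.26). Cyp2c23 has a brighter probe set on array set C that averaged 623 and 399 and was not called (log2 difference -0.60, adjusted p = 0.427). Cyp4f13 (-0.73) has a dimmer probe set that was not called, with its log2 difference in parentheses. Cyp2d22 had a log2 difference of -2.34 over all pools and of -1.75 without ileum pool 1. Cyp4f13 lost its call without jejunum pool 2 or 3 or ileum pool 1 or 3 (-1.61 to -1.50), Cyp2c23 without any jejunum pool or any ileum pool (-1.37 to -1.01) and Cyp3a13 without jejunum pool 1 or 2 or ileum pool 1 or 3 (-0.96 to -0.77).

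Of the 29 measured genes of regional epithelial transcription factors, 5 rose and 2 fell in the ileum, and the median log2 difference over them was 0.34 (0.06 after centring). Creb3l3, a membrane-bound activator of lipid genes, read 12191, 17889 and 12566 in the jejunum pools and 2896, 4411 and 2419 in the ileum pools (log2 difference -2.15 ± 0.236 (SE), adjusted p = 9.03e-05). Zfpm1, a partner of GATA factors, read 1407, 1591 and 2076 in the jejunum pools and 278, 545 and 343 in the ileum pools (log2 difference -2.11 ± 0.229 (SE), adjusted p = 1.07e-04). Gata4, a factor of proximal identity, averaged 205 and 145 on its representing probe set, from array set A (log2 difference -0.48, adjusted p = 0.655). A brighter probe set on array set B was called lower, with 1674, 2553 and 1768 in the jejunum pools and 510, 367 and 321 in the ileum pools (-2.28). Osr2, a zinc finger factor, rose with 448, 1070 and 626 in the jejunum pools and 2389, 2291 and 3071 in the ileum pools (log2 difference 1.91 ± 0.306 (SE), adjusted p = 0.00261), and it averaged 35.2 in the duodenum. Klf4 (413 to 811, 0.99), Foxa1 (48.6 to 145, 1.34) and the caudal factor Cdx1 (389 to 642, 0.69) rose modestly, and Cdx2 averaged 118 and 217 without passing (adjusted p = 0.0944). Hnf4a rose on a dimmer probe set (163 to 428, 1.41), but its bright probe set on array set B averaged 4152 and 4813 and was not called (log2 difference 0.21). None of Klf4 (0.71), Foxa1 (1.06) and Cdx1 (0.41) was called after centring. Klf4 (-0.05) has a dimmer probe set that was not called, with its log2 difference in parentheses. Klf4 lost its call without ileum pool 1 or 3 (0.92 to 0.97), Foxa1 without jejunum pool 3 or ileum pool 1 or 3 (1.08 to 1.25) and Cdx1 without any jejunum pool or ileum pool 1 or 3 (0.59 to 0.72). Hnf4a lost its call without jejunum pool 2 or 3 or any ileum pool (1.18 to 1.53). None of the 33 measured Hox genes was called in either direction by limma, and their differences ran from -0.62 to 0.61, with a median of 0.24 (-0.04 after centring). At an unadjusted p below 0.05 in limma there were 0 Hox genes, against 2962 of all 15964 genes.

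Of the 42 measured genes of the nuclear receptor family, 1 rose and 3 fell in the ileum, and the median log2 difference over them was 0.13 (-0.14 after centring). Hnf4a, described above, was the one that rose. The xenobiotic receptor Nr1i3, whose known targets include Cyp2b10, read 414, 331 and 563 in the jejunum pools and 125, 254 and 154 in the ileum pools (log2 difference -1.25 ± 0.265 (SE), adjusted p = 0.0197), and both its other probe sets on array set A were also called lower. Ppara, the regulator of fatty acid oxidation, fell from 417 to 210.2 (log2 difference -0.94, adjusted p = 0.0259), and its second probe set, on array set B, averaged 86.3 and 145.5 without passing. Nr1h3, a sterol receptor, fell from 816 to 433 (log2 difference -0.84, adjusted p = 0.0464). The vitamin D receptor Vdr averaged 816 and 671 (log2 difference -0.27, adjusted p = 0.535). Nr1i3 lost its call without jejunum pool 3 or ileum pool 1 or 3 (-1.18 to -1.05), Ppara without jejunum pool 2 or 3 or any ileum pool (-1.05 to -0.76) and Nr1h3 without jejunum pool 2 or 3 or any ileum pool (-0.87 to -0.63).

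Of the 30 measured genes of enteroendocrine hormones and granules, 2 rose and 3 fell in the ileum, and the median log2 difference over them was 0.12 (-0.16 after centring). Cck, released by fat and protein to empty the gall bladder, read 605, 504 and 578 in the jejunum pools and 132, 102 and 87.7 in the ileum pools (log2 difference -2.24 ± 0.283 (SE), adjusted p = 4.74e-04), and its means were 754 in the duodenum and 46.3 in the colon. The incretin Gip read 836, 956 and 954 in the jejunum pools and 479, 407 and 296 in the ileum pools (log2 difference -1.21 ± 0.219 (SE), adjusted p = 0.00756), and a brighter probe set on array set C fell further (5441 to 919, log2 difference -2.52). Sst, which inhibits other endocrine cells, fell with 869, 767 and 916 in the jejunum pools and 460.4, 393 and 487 in the ileum pools (log2 difference -0.91 ± 0.152 (SE), adjusted p = 0.00409). Neurotensin (Nts) rose with 111, 133 and 110.4 in the jejunum pools and 394, 333 and 405 in the ileum pools (log2 difference 1.55 ± 0.331 (SE), adjusted p = 0.0186), against 11.1 in the duodenum and 169 in the colon, so that the ileum was its peak. Peptide YY (Pyy) rose with 70.2, 352 and 771 in the jejunum pools and 1355, 1653 and 1540 in the ileum pools (log2 difference 2.39 ± 0.543 (SE), adjusted p = 0.027). Its jejunum pools lay far apart, and all lay under the ileum pools. Gcg, which encodes glucagon-like peptides, was dim on its representing probe set (18.8 and 55.7, adjusted p = 0.139), and its probe set on array set C was called higher (617 to 2165, log2 difference 1.74, adjusted p = 0.0316). Secretin (Sct) averaged 2089 and 2365 (log2 difference 0.19, adjusted p = 0.695), and the granule protein Chga 233 and 213 (log2 difference -0.10, adjusted p = 0.915). Pyy was not called after centring (2.23). Nts (-0.32) has a dimmer probe set that was not called, with its log2 difference in parentheses. Pyy had a log2 difference of 2.39 over all pools and of 1.50 without jejunum pool 1 and of 3.10 without jejunum pool 3. Gip lost its call without ileum pool 3 (-1.02), Nts without jejunum pool 3 or ileum pool 1 or 3 (1.50 to 1.52) and Pyy without jejunum pool 2 or any ileum pool (2.32 to 2.55).

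Of the 23 measured genes of goblet cells, 3 rose and 0 fell in the ileum, and the median log2 difference over them was 0.27 (0.01 after centring). Retnlb, a goblet cell protein with antibacterial action, read 1422, 1893 and 1399 in the jejunum pools and 4575, 3966 and 3934 in the ileum pools (log2 difference 1.41 ± 0.188 (SE), adjusted p = 7.46e-04), under its colon mean of 23125. The mucin Muc2 averaged 3912 and 4045 (log2 difference 0.06, adjusted p = 0.958) and Tff3 14970 and 18140 (log2 difference 0.27, adjusted p = 0.615). Of the 20 measured genes of Paneth cells and antimicrobial defence, 1 rose and 2 fell in the ileum, and the median log2 difference over them was 0.17 (-0.06 after centring). Reg3g, a lectin that kills Gram-positive bacteria, rose with 5907, 7851 and 5935 in the jejunum pools and 13104, 16247 and 10395 in the ileum pools (log2 difference 1.00 ± 0.237 (SE), adjusted p = 0.0346), while Reg1 and Guca2b fell, as given above. Lysozyme (Lyz1) averaged 7682 and 12243 (log2 difference 0.68, adjusted p = 0.273) and the defensin Defa23 23485 and 20971 (log2 difference -0.16, adjusted p = 0.803). The kallikrein Klk1 (535 to 1214, 1.12) and the mucin-type transferase Galnt4 (122 to 282, 1.14) were the other called goblet genes. Reg3g, Klk1 and Galnt4 were not called after centring (0.72, 0.84 and 0.87). Reg3g (0.65), Klk1 (1.09) and Galnt4 (0.46) have dimmer probe sets that were not called, with log2 differences in parentheses. Reg3g lost its call without jejunum pool 1 or 3 or ileum pool 1 or 2 (0.84 to 1.00), Klk1 without ileum pool 1 or 3 (0.96 to 1.00) and Galnt4 without jejunum pool 2 or 3 or ileum pool 1 or 3 (0.95 to 1.12).

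Of the 28 measured genes of antioxidant and peroxidase enzymes, 3 rose and 6 fell in the ileum, and the median log2 difference over them was 0.04 (-0.23 after centring). Glutathione reductase (Gsr) rose with 395, 522 and 361 in the jejunum pools and 1636, 2228 and 1376 in the ileum pools (log2 difference 1.98 ± 0.202 (SE), adjusted p = 5.88e-05). Duoxa2, which matures the hydrogen peroxide source of the epithelium, rose from 155 to 777, and Cyba, a subunit of NADPH oxidases, rose from 621 to 1273. Lower were Gpx4 (1017 to 399.8, -1.31), which repairs lipid peroxides, and Xdh (1693 to 686, -1.31), which makes urate. Of the 22 measured genes of purine and pyrimidine breakdown, 2 rose and 2 fell in the ileum, and the median log2 difference over them was 0.16 (-0.11 after centring). Cytidine deaminase (Cda) fell with 3683, 7993 and 7856 in the jejunum pools and 1367, 1182 and 988 in the ileum pools (log2 difference -2.38 ± 0.262 (SE), adjusted p = 9.34e-05), and the salvage enzymes Adk (231 to 733, 1.55) and Hprt (210.1 to 409.5, 0.93) rose. Of the 18 measured genes of the urea cycle and arginine and ornithine metabolism, 2 rose and 1 fell in the ileum, and the median log2 difference over them was 0.04 (-0.24 after centring). Mitochondrial arginase (Arg2) fell with 5432, 7776 and 7107 in the jejunum pools and 2359, 1804 and 1303 in the ileum pools (log2 difference -1.91 ± 0.212 (SE), adjusted p = 1.35e-04), while Azin1 (172 to 568, 1.64) and Sat1 (344 to 979, 1.42), which raise and spend polyamines, rose. Cyba, Sat1 and Hprt were not called after centring (0.76, 1.14 and 0.66). Adk (0.02 to 0.87 on 3), Arg2 (0.05) and Azin1 (1.24) have dimmer probe sets that were not called, with log2 differences in parentheses. Duoxa2 had a log2 difference of 2.36 over all pools and of 1.77 without jejunum pool 1. Duoxa2 lost its call without ileum pool 3 (2.11), Hprt without jejunum pool 2 or 3 or ileum pool 1 or 3 (0.72 to 0.94) and Sat1 without jejunum pool 2 or 3 or ileum pool 1 or 3 (1.18 to 1.40).

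Of the 29 measured genes of B cells, plasma cells and IgA transport, 3 rose and 0 fell in the ileum, and the median log2 difference over them was 0.60 (0.38 after centring), with 28 members above 0. Over all 15964 genes 9084 were above 0. In bulk tissue more cells of a type and more RNA per cell cannot be told apart, here and in the groups below. Cd79b, of the B cell receptor, read 127, 151 and 128 in the jejunum pools and 469, 303 and 389 in the ileum pools (log2 difference 1.40 ± 0.234 (SE), adjusted p = 0.00423), while Cd79a (224 to 442, 0.95) and Cd22 (15.3 to 59.2, 1.18) did not pass (adjusted p = 0.104 and 0.0778). The 4 measured B cell markers summed to 403 to 565 in the jejunum pools and 994 to 1118 in the ileum pools. Jchain (812 to 1560, 0.97) and Mzb1 (538 to 1096, 1.01) of plasma cells were called, but Igha, the IgA heavy chain, averaged 20178 and 20915 (log2 difference 0.04, adjusted p = 0.983). Of the 19 measured genes of Peyer's patch follicles and stroma, 2 rose and 1 fell in the ileum, and the median log2 difference over them was 0.66 (0.38 after centring). The follicular chemokine Cxcl13 read 38, 35.4 and 8.7 in the jejunum pools and 114, 137 and 107 in the ileum pools (log2 difference 1.72 ± 0.333 (SE), adjusted p = 0.0118). Clu, which follicular stroma makes, rose from 432 to 823 and the lymphotoxin receptor Ltbr fell from 1031 to 491. The follicle markers summed to 61.1 to 94.8 in the jejunum pools and 193 to 388 in the ileum pools, mostly dim. Mzb1 (-0.49) has a dimmer probe set that was not called, with its log2 difference in parentheses. Jchain lost its call without jejunum pool 2 or 3 or ileum pool 1 or 3 (0.71 to 1.02), Mzb1 without any jejunum pool or any ileum pool (0.80 to 1.19) and Clu without jejunum pool 3 or ileum pool 2 or 3 (0.81 to 0.94). Ltbr lost its call without jejunum pool 2 or 3 or ileum pool 1 or 3 (-1.01 to -0.85). After centring, Jchain, Mzb1 and Clu were not called (0.69, 0.86 and 0.63).

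Of the 19 measured genes of MHC class II presentation, 4 rose and 1 fell in the ileum, and the median log2 difference over them was 0.37 (0.13 after centring). The invariant chain Cd74 read 3702, 4524 and 4169 in the jejunum pools and 9482, 8890 and 7666 in the ileum pools (log2 difference 1.07 ± 0.200 (SE), adjusted p = 0.00929), and H2-Aa read 2631, 2638 and 2365 in the jejunum pools and 5996, 5206 and 4395 in the ileum pools (log2 difference 1.02 ± 0.206 (SE), adjusted p = 0.0151). H2-DMb1, which helps load peptides, rose from 431 to 1060, and H2-Eb1 rose from 631 to 1786. Ifi30, a lysosomal reductase of the same route, fell from 2126 to 998. Of these rises H2-DMb1 alone stayed called after centring, where Cd74, H2-Aa and H2-Eb1 stood at 0.79, 0.74 and 1.21. Of the 48 measured genes of interferon response and MHC class I, 0 rose and 2 fell in the ileum, and the median log2 difference over them was -0.19 (-0.42 after centring). Those that fell were H2-Q1 (1460 to 514, -1.47) and Ifi35 (784 to 358, -1.09). Of the 32 measured genes of T and cytotoxic lymphocytes, 0 rose and 0 fell in the ileum, and the median log2 difference over them was 0.00 (-0.25 after centring). In limma 3 of them had an unadjusted p below 0.05, against 2962 of all 15964 genes. Of the 37 measured genes of macrophages, dendritic cells and mast cells, 1 rose and 0 fell in the ileum, and the median log2 difference over them was 0.12 (-0.16 after centring). The gene that rose, Cd24a, is also made by epithelium (539.5 to 1126, 1.07), and it was not called after centring (0.80). H2-Aa (0.37 and 0.42), H2-Eb1 (0.54) and Ifi30 (-0.31) have dimmer probe sets that were not called, with log2 differences in parentheses. H2-Aa lost its call without jejunum pool 3 or ileum pool 1 (0.91 to 0.97), H2-Eb1 without jejunum pool 2 or 3 or ileum pool 1 or 3 (1.15 to 1.58) and Ifi30 without jejunum pool 2 or 3 or ileum pool 2 or 3 (-1.08 to -0.87). Ifi35 lost its call without jejunum pool 3 or ileum pool 3 (-1.11 to -0.99).

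Of the 52 measured genes of chemokine and cytokine signalling, 1 rose and 3 fell in the ileum, and the median log2 difference over them was 0.28 (0.00 after centring). The epithelial cytokine Il18 fell with 318, 439.9 and 289 in the jejunum pools and 187, 19.2 and 79.8 in the ileum pools (log2 difference -2.03 ± 0.431 (SE), adjusted p = 0.0197) and the alarmin Il33 with 892, 1038 and 943 in the jejunum pools and 549, 136 and 204 in the ileum pools (log2 difference -1.87 ± 0.478 (SE), adjusted p = 0.0484). Ccl24, which attracts eosinophils, fell from 705 to 214. Ccl28, which draws IgA plasma cells to mucosa, rose with 46.3, 26.8 and 39.3 in the jejunum pools and 305, 114 and 448 in the ileum pools (log2 difference 2.35 ± 0.531 (SE), adjusted p = 0.0261). Il33 (-2.02) and Ccl28 (2.19) were not called after centring, and none of the 4 kept its call without each pool in turn. Il33 (-0.57) has a dimmer probe set that was not called, with its log2 difference in parentheses. Il18 had a log2 difference of -2.03 over all pools and of -2.63 without ileum pool 1 and of -1.37 without ileum pool 2. Il18 lost its call without jejunum pool 2 or 3 or ileum pool 3 (-2.15 to -1.86), Il33 without any jejunum pool or ileum pool 2 or 3 (-1.92 to -1.46) and Ccl24 without jejunum pool 1 or 3 or any ileum pool (-1.72 to -1.50). Ccl28 lost its call without jejunum pool 2 or 3 or ileum pool 1 or 3 (1.95 to 2.38).

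Of the 27 measured genes of smooth muscle, 4 rose and 1 fell in the ileum, and the median log2 difference over them was 0.51 (0.23 after centring), with 23 members above 0. Over all 15964 genes 9084 were above 0. Tagln read 564, 893 and 664 in the jejunum pools and 1409, 1277 and 1469 in the ileum pools (log2 difference 0.98 ± 0.175 (SE), adjusted p = 0.00679), and Cnn1 (553 to 1014, 0.87), Mylk (1496 to 2443, 0.70) and Tpm1 (999 to 1873, 0.91) rose, while actin Acta2 averaged 1778 and 1483 (log2 difference -0.22, adjusted p = 0.74). The 7 smooth muscle markers summed to 5098 to 7791 in the jejunum pools and 8876 to 10649 in the ileum pools, so the ileum pools lay above all jejunum pools. Whether the ileum pools held a larger share of muscle, and what part it had in results on other genes, was not tested. After centring none of these rises was called (Tagln 0.70, Cnn1 0.59, Mylk 0.42, Tpm1 0.63). Ckb, a creatine kinase that epithelium also makes, fell with 3692, 3153 and 4095 in the jejunum pools and 984, 1089 and 1106 in the ileum pools (log2 difference -1.76 ± 0.157 (SE), adjusted p = 1.61e-05). Of the 35 measured genes of fibroblasts and matrix, 3 rose and 1 fell in the ileum, and the median log2 difference over them was 0.43 (0.16 after centring). Fbln1 fell with 2685, 3703 and 4430 in the jejunum pools and 810.3, 701 and 492 in the ileum pools (log2 difference -2.40 ± 0.199 (SE), adjusted p = 8.13e-06), and 2 other probe sets were called lower too. Col3a1 (181 to 381, 1.09), Col6a3 (217 to 414, 0.92) and Sparc (91.3 to 179, 0.87) rose, and none of them was called after centring (0.81, 0.65 and 0.59). Mylk has a brighter probe set on array set B that averaged 3799 and 3651 and was not called (log2 difference 0.02, adjusted p = 0.988). Col6a3 has a brighter probe set on array set C that averaged 395 and 560.1 and was not called (log2 difference 0.49, adjusted p = 0.561). Mylk (-0.46 and 0.45), Tpm1 (0.05 to 1.19 on 4), Fbln1 (0.09), Col3a1 (0.53 and 0.84) and Sparc (-1.11) have dimmer probe sets that were not called, with log2 differences in parentheses. Mylk lost its call without jejunum pool 3 or ileum pool 1 or 3 (0.60 to 0.70), Tpm1 without jejunum pool 1 or 3 or ileum pool 1 or 3 (0.72 to 0.91) and Col3a1 without jejunum pool 2 or 3 or any ileum pool (0.80 to 1.15). Col6a3 lost its call without jejunum pool 2 or any ileum pool (0.69 to 0.94) and Sparc without jejunum pool 2 or 3 or ileum pool 1 or 3 (0.80 to 0.90). Of the 30 measured genes of enteric neurons and glia, 0 rose and 0 fell in the ileum, and the median log2 difference over them was 0.01 (-0.26 after centring). Of the 25 measured genes of endothelium, 0 rose and 0 fell in the ileum, and the median log2 difference over them was 0.08 (-0.19 after centring). At an unadjusted p below 0.05, limma gave 4 neuronal or glial and 2 endothelial genes, against 2962 of all 15964 genes.

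Of the 55 measured genes of the cell cycle and DNA replication, 2 rose and 0 fell in the ileum, and the median log2 difference over them was 0.31 (0.03 after centring). Cyclin D1 (Ccnd1) read 256, 152 and 168 in the jejunum pools and 568, 595 and 519 in the ileum pools (log2 difference 1.50 ± 0.192 (SE), adjusted p = 5.21e-04), and the mitotic checkpoint kinase Bub1b read 84.8, 34.4 and 34.2 in the jejunum pools and 214, 189.6 and 219.5 in the ileum pools (log2 difference 1.82 ± 0.388 (SE), adjusted p = 0.0189). Of the 36 measured genes of Wnt signalling and crypt stem cells, 2 rose and 0 fell in the ileum, and the median log2 difference over them was 0.19 (-0.05 after centring). The receptors Fzd5 (550.1 to 1393, 1.29) and Fzd1 (135 to 336, 1.25) rose, though a brighter Fzd1 probe set was not (log2 difference 0.18). Of the 46 measured genes of heat shock proteins and chaperones, 2 rose and 0 fell in the ileum, and the median log2 difference over them was 0.39 (0.12 after centring). Those that rose were Cct4 (221 to 655, 1.49) and Cct5 (494 to 959.5, 0.91) of the chaperonin ring. Of the 37 measured genes of the immediate early class, 3 rose and 0 fell in the ileum, and the median log2 difference over them was 0.34 (0.06 after centring). They were Klf4, Klf6 (123 to 311, 1.19) and Dusp6 (278 to 556, 1.01). Of the 48 measured genes of glycosylation, 4 rose and 1 fell in the ileum, and the median log2 difference over them was 0.20 (-0.06 after centring). The sialyltransferase St6galnac6 rose from a dim level (11.6, 6.4 and 20.2 in the jejunum pools and 164, 53.8 and 108 in the ileum pools, log2 difference 2.04 ± 0.330 (SE), adjusted p = 0.00333), and its colon mean was 1304. B4galt4 (238 to 672, 1.37) and B4galt1 (582 to 1331, 1.11) rose as well, and Galnt10 fell from 246 to 120.3. Not called after centring were Fzd5 (1.13), Cct4 (1.21), Cct5 (0.63), Klf6 (0.92), Dusp6 (0.73) and B4galt1 (0.84). B4galt4 has a brighter probe set on array set C that averaged 753 and 1017 and was not called (log2 difference 0.37, adjusted p = 0.674). Galnt10 has a brighter probe set on array set B that averaged 912 and 735 and was not called (log2 difference -0.27, adjusted p = 0.732), nor was another at -1.04. Ccnd1 (1.26), Cct4 (0.46), Cct5 (-0.43), Klf6 (0.52) and Dusp6 (0.15 and 0.58) have dimmer probe sets that were not called, with log2 differences in parentheses. Bub1b lost its call without jejunum pool 2 or 3 or ileum pool 1 or 3 (1.65 to 1.79), Fzd5 without jejunum pool 3 or ileum pool 1 or 3 (1.09 to 1.17) and Fzd1 without jejunum pool 2 or 3 or ileum pool 2 or 3 (1.09 to 1.19). Cct4 lost its call without jejunum pool 3 or ileum pool 1 or 3 (1.20 to 1.38), Cct5 without jejunum pool 2 or 3 or ileum pool 1 or 3 (0.77 to 0.93) and Klf6 without jejunum pool 1 or 3 or ileum pool 1 or 3 (0.94 to 1.26). Dusp6 lost its call without jejunum pool 2 or 3 or any ileum pool (0.74 to 1.10), B4galt4 without jejunum pool 3 or ileum pool 1 or 3 (1.19 to 1.32) and B4galt1 without jejunum pool 2 or 3 or ileum pool 2 or 3 (0.81 to 1.24). Galnt10 lost its call without jejunum pool 2 or 3 or ileum pool 1 or 3 (-0.95 to -0.89).

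Of the 25 measured genes of colon and caecum epithelium, 4 rose and 0 fell in the ileum, and the median log2 difference over them was 0.20 (-0.08 after centring). Tmigd1, Saa2, Pyy and Retnlb rose, and their colon means were 1065, 3892, 2202 and 23125, so Tmigd1 was the one whose ileum mean (3347) passed that of the colon. Other members were not called. Car1 averaged 26.7 and 19.3 against 14650 in the colon, Aqp8 62.2 and 32.8 against 919, and Car4 2095 and 1414 against 4254. Other tissues could adhere to a segment. Of the 26 measured genes of the exocrine pancreas, 1 rose and 1 fell in the ileum, and the median log2 difference over them was -0.04 (-0.25 after centring). They were Klk1 and Reg1, which the gut also makes. Of the 22 measured genes of gastric and Brunner's glands, 0 rose and 1 fell in the ileum, and the median log2 difference over them was 0.04 (-0.24 after centring). The gene was Sst. Of the 16 measured genes of mesenteric fat, 1 rose and 2 fell in the ileum, and the median log2 difference over them was 0.09 (-0.19 after centring). Its called genes were Scd1 (99.7 to 402, 1.84), Pck1 and Cidec (204 to 74.5, -1.26). The fat markers Adipoq and Retn were dim on their representing probe sets (sums of 20 to 50.3 in the jejunum pools and 58.2 to 130.4 in the ileum pools). In these sums every ileum pool lay above every jejunum pool. Retn has a brighter probe set on array set B that averaged 269.6 and 114.5 and was not called (log2 difference -0.97, adjusted p = 0.669). Scd1 (0.05) has a dimmer probe set that was not called, with its log2 difference in parentheses. Cidec lost its call without jejunum pool 2 or 3 or ileum pool 1 or 3 (-1.32 to -1.12).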

How the data were processed

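RNA of 12 pools of 10 mice each, 3 a segment, was hybridised to oligonucleotide array sets A, B and C. The deposited intensities are linear and carry no stated unit. From the values, the authors scaled each array's intensity to a trimmed mean near 200, by software and steps not given in the sources used here. After 198 control probe sets were left out, log2(intensity + 16) of the 12 arrays of each set was fitted in limma (version 3.58.1, R 4.3.3; lmFit and eBayes with an intensity trend), duodenum and colon arrays included for the estimate of spread. Benjamini-Hochberg adjustment ran over all 36701 probe sets at once, and called means an adjusted p below 0.05. All tests were two-sided.

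Of these probe sets, 29131 had 1 gene symbol in the platform annotation, 724 several and 6846 none, and 29044 of the symbols were updated through Entrez identifiers. A gene was represented by its brightest probe set on array set A, else B, else C. Named were the 20 largest rises and falls of at least 2-fold without overlap and above the array set's median, up to 5 called genes a list by adjusted p, uncalled members, markers, and family members that differ in direction. Mttp, Dgat1, Mogat2, Slc27a2, Scarb1, Lrat, Slc5a1, Pklr, Hk1, Mep1a, Mme, Insig2, Msmo1, Cdx1, Slc7a7, Slc43a2, Slc5a12, Slc16a3, Cyp2d22, Cyp4f13, Cyp2c23 and Cyp3a13 fall outside this rule and were chosen after their values were seen. Members and lists were chosen with earlier results of these data known.

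Tested on simulated data of 36701 probe sets, the ileum against jejunum fit recovered 15.3% of 300 probe sets shifted by 1 on the log2 scale and 62.0% of 300 shifted by 2, and 4.5% of its 243 calls were false. The simulated noise was drawn independently for each probe set, without shifts of whole arrays. The real arrays differed in median intensity and control values, so these shares are not shown to hold for the real calls. Alternatives were other offsets, a filter on low values, median centring, quantile normalization, the 6 arrays alone, no trend, pool number or 18S class as a block, 18S subsets, other probe sets of a gene, adjustment within array sets and leaving out each pool. One array titled duodenum (pool 3, array set C) has a source label that names the jejunum; it was used as titled and enters only the estimate of spread and the duodenal means of that array set.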

Additional observations from a re-analysis of the deposited data

How the results depend on the processing

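Alternatives changed the number of calls and their split into higher and lower. The main count of 1020 (591 higher, 429 lower) became 376 (169 and 207) when only the 6 arrays of these segments were fitted, 664 (402 and 262) without the intensity trend, and 753 with median centring, of which 202 were higher. With the low-18S pools alone (jejunum 2 and 3, ileum 1 and 3) it was 1577, of which 1020 were higher, and with the high-18S pools alone, 1 a segment, it was 67 (27 and 40), where the lone pool is assumed to vary like the others. The subsets also held fewer arrays, and the cause of these changes was not tested. Leaving out 1 jejunum or ileum pool gave 384 to 1410 calls, 170 to 806 higher and 214 to 604 lower; leaving out a duodenum or colon pool gave 822 to 932. Other offsets, quantile normalization, adjustment within array sets and the filter on low values, which tested 19235 probe sets, gave 829 to 1297. All 1020 calls kept their sign in each alternative that tested them except the high-18S subset, where 1019 did. For most alternatives this was fixed in advance. Where the jejunum and ileum values and their scaling were unchanged, the difference did not move. Where pools do not overlap, as for 1018 of the 1020 calls, another offset or a subset of pools cannot turn the sign. Median centring and quantile normalization could turn it, and all 1020 kept their sign in both.

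Of 190 called genes named, 23 were called in every alternative that was run and 77 in all but those that leave out jejunum or ileum pools or keep an 18S class. These alternatives tried at most 2 of a gene's other probe sets, the lower and upper middle of their differences, so they do not cover all of them: Fbln1, for 1, has a dim probe set at 0.09 that was not called. With a middle probe set of the gene the difference turned to -0.06 for Map3k6, -0.56 for Irf2bpl, -0.07 for Hk2, -0.32 for Nts, -0.05 for Klf4, -1.11 for Sparc, -0.49 for Mzb1 and -0.43 for Cct5, and to 0.03 for Bbox1, 0.41 for Aldh1a1, 0.05 for Arg2 and 0.76 for Ppara. Further probe sets of the opposite sign, at -0.79 for Irf2bpl, 0.24 for Ace, 0.20 for Slc2a5, -0.65 for Rdh10, -0.42 for Msmo1, -0.46 for Mylk and 0.09 for Fbln1, bring this to 18 of the called genes, and none of these probe sets was called. The cause was not tested.

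The animals were divided into 3 pools ahead of dissection, but the labels do not say that equal pool numbers mark the same mice in different segments. Deviations of same-numbered jejunum and ileum pools from their segment means correlated at -0.22, -0.36 and -0.09 on array set A, -0.04, -0.18 and 0.04 on B, and 0.20, -0.02 and 0.04 on C. With the pool number as a replicate block, 882 probe sets were called (503 higher, 379 lower), 830 of them among the 1020. Of the genes named, Car2, Nr1h3, Tpm1, Col6a3, Mzb1, Dusp6, Klf6, Cidec, Scarb1, Lrat, Pklr, Slc16a3 and Cyp2c23 were not called with the block (adjusted p from 0.0501 to 0.0647 in limma), and Fdps was called (0.86, adjusted p = 0.00883).

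The number of pools limits precision, and a dim probe set gives little signal over background, so a gene that was not called is not shown to be equal in the segments.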
